A study of Mus musculus with 6 samples.

Results

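Scgb1a1, Scgb3a1, Scgb3a2, Bpifa1 and Cyp2f2 are 5 genes of the secretory cells that line the conducting airways, and they were followed here in single-cell libraries of the mouse lung. They were chosen by name, as 5 of the 32285 genes counted, by a rule that uses no threshold on their values, although earlier results of these data were known. Their unique molecular identifiers (UMIs, each standing for a captured transcript) were traced in each mouse through the few cells that carried them at high level, through cells of other types, and through barcodes with fewer than 100 UMIs. The RNA of these small barcodes is called ambient RNA here; what part of it was free in the cell suspension was not tested.

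The airways are lined by secretory (club) cells, goblet cells and ciliated cells, and club cells release secretoglobins, small proteins of the airway lining fluid. Scgb1a1 encodes the club cell secretory protein, Scgb3a2 a secretoglobin of the smaller airways, and Scgb3a1 a secretoglobin of the larger airways. Bpifa1 encodes a secreted host-defence protein of the upper and larger airways, and Cyp2f2 a cytochrome P450 of club cells that acts on inhaled foreign compounds. A transcript as abundant as Scgb1a1 can also leave cells during tissue digestion and be captured with any other cell.

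The libraries came from 6 male mice, 12 weeks old, in which the Ctla4 gene carries human exons (hCTLA4 knockin, C57BL/6 background), so that the human antibody ipilimumab can bind. Every mouse received bleomycin, which injures the lung epithelium and leads to fibrosis, into the oropharynx at 1.25 U/kg in 2 doses given 2 weeks apart. From day 21 after the second dose, 3 mice received control IgG1 and 3 mice ipilimumab at 5 mg/kg, 2 times per week for 4.5 weeks. Cells of the digested right lung went into a 10x Genomics 3' library for each mouse, and no mouse without bleomycin was included, so bleomycin and treatment with either antibody are shared by all values below.

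The libraries held from 37666042 to 48612412 UMIs, and 24253 cells were kept, from 3268 to 4349 per mouse. In 5 libraries the called cells held from 92.4% to 93.1% of all UMIs. The library of ipilimumab replicate 1 stood apart, with 78.9% of UMIs in called cells and 22056 barcodes of at least 100 UMIs, where the other libraries had 4834 to 6230. It also held 151 cells gated as alveolar type 2 (AT2) and 36 gated as ciliated, against 0 to 7 and 3 to 12 in the others, and its ciliated cells had a median of 920 UMIs against 18353 to 29473. Between 14 and 26 kept barcodes per mouse were also kept in another library.

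In the mm10 (GRCm38) build used for the alignment, Scgb1a1 (ENSMUSG00000024653) lies at chr19:9083636-9087958 on the minus strand and has 3 exons. Scgb3a1 (ENSMUSG00000064057) lies at chr11:49663610-49665118, Bpifa1 (ENSMUSG00000027483) at chr2:154142880-154149219 and Cyp2f2 (ENSMUSG00000052974) at chr7:27119909-27133660, each on the plus strand, with 3, 9 and 10 exons. Scgb3a2 (ENSMUSG00000038791) is a protein-coding gene with 2 exons. The annotated antisense gene Gm15883 lies inside Cyp2f2 on the opposite strand, and how the counting treated it is not given in the sources used here.

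RefSeq promoters (GRCm38.p6, from 250 bases before to 50 bases after the start site, each on the plus strand) were found for 3 of the 5 genes. They are shown as the windows available, and were not chosen by the levels of the genes. Capitals mark matches to 3 motifs searched on both strands: the TATA box (TATAAA), the core recognised by the lung factor NKX2-1 (CAAGTG), and the forkhead motif (in the form TGTTTAC, the form TGTTTGC, the form TATTTAC or the form TATTTGC).
Scgb3a1, chr11:49663345-49663644: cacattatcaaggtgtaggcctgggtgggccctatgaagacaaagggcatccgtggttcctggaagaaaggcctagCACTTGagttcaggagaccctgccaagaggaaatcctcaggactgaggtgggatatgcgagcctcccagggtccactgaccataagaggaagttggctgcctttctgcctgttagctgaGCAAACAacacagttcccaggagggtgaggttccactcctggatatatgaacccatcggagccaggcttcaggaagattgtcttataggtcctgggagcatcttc
Bpifa1, chr2:154142630-154142929: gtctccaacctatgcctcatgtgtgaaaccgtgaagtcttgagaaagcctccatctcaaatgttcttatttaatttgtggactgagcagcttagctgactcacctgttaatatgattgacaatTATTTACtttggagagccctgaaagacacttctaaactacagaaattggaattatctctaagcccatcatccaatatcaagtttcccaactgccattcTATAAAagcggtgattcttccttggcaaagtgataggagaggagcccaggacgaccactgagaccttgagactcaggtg
Cyp2f2, chr7:27119705-27120004: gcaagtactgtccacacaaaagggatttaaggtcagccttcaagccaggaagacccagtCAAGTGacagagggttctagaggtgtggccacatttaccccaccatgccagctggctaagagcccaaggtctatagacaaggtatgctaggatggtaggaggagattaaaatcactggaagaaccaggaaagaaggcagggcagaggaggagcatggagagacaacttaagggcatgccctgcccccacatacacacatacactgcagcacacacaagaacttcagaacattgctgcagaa
In the Scgb3a1 window the NKX2-1 core and a forkhead motif were read on the opposite strand, with their first printed base 174 and 55 bases before the start site. The Bpifa1 window held a TATA box 29 bases and a forkhead motif 127 bases before the start site, and the Cyp2f2 window held the NKX2-1 core 191 bases before it. Of 32851 mouse promoter windows of this length, 13.6% held TATAAA, 13.6% held CAAGTG and 13.5% held a forkhead motif. These matches describe the letters of the windows only.

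Cells in which the 5 genes made up at least 5% of the UMIs (source cells) were rare. They numbered 3, 0 and 1 in the IgG1 mice and 3, 1 and 8 in the ipilimumab mice, 16 of the 24253 kept cells. In IgG1 replicate 2, 0 of 4227 cells allows a share of up to 0.0710% (3 cells; the exact 95% upper limit is 0.0872%), and in ipilimumab replicate 3, the mouse with most source cells, the share was 0.197% (exact 95% binomial interval 0.0850% to 0.388%). Intervals given here cover counting error only.

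The share of source cells averaged 0.0332% ± 0.0346 (SD, n = 3) in IgG1 mice and 0.0970% ± 0.0893 (SD, n = 3) in ipilimumab mice. The groups overlapped, and the exact two-sided permutation test gave p = 0.4, where the smallest p that 3 against 3 mice allow is 0.1. In the fit of cells per class over 18 classes, of which 1 (5.56%) was called, the log2 fold change was 1.45 (SE 1.32), with an adjusted p of 0.465 by edgeR's quasi-likelihood test with Benjamini-Hochberg adjustment. The log2 fold change was 0.47 without ipilimumab replicate 3, 0.87 without IgG1 replicate 2 and 2.56 without IgG1 replicate 1, and it passed the test in none of these fits. A further barcode with the 5 genes at 71.1% of UMIs in ipilimumab replicate 1, with only 186 genes, and another at 21.5% in ipilimumab replicate 2, with 26.3% mitochondrial UMIs, were called as cells and removed by the quality limits. No source cell was removed as a doublet.

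The threshold of 5% fell in a wide gap. The source cell nearest to it had 14.9% of its UMIs in the 5 genes, and the nearest cell below it had 3.80%, an ungated cell of ipilimumab replicate 3 with 965 Scgb1a1 and 96 Cyp2f2 UMIs among 27886. The next below was a ciliated cell of ipilimumab replicate 1 at 2.42%. The set of source cells was thus the same at a threshold of 10%.

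Within the source cells the 5 genes made up 14.9% to 73.1% of the UMIs, with a median of 56.3%, which is the measure that chose them. Scgb1a1 accounted for almost all of this. It was found in 16 of 16 source cells at 690 to 68162 UMIs (median 11320), and it made up 68.1% to 99.5% of the UMIs of the 5 genes, over 95% in 13 cells. In sum over the 16 cells, 249486 of 267948 UMIs of the 5 genes were Scgb1a1.

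Scgb3a2 was also found in each of the 16 source cells, but at levels that spread more widely, from 1 to 2628 UMIs with a median of 143.5. It was below 50 UMIs in 6 cells, 4 of which held 10 UMIs or fewer beside 2265, 690, 15822 and 11330 Scgb1a1 UMIs. Shallow cells of 1036 and 1431 UMIs in all were among the 6. In them Scgb3a2 made up 1.14% and 4.30% of the UMIs of the 5 genes, where the median source cell had 1.76%. Cyp2f2 was found in 15 of 16 source cells, at up to 688 UMIs (median 100.5), and never made up more than 1.71% of the UMIs of the 5 genes.

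Scgb3a1 and Bpifa1, the genes of the larger airways, were each confined to 3 of the 16 source cells. Scgb3a1 had 1098 UMIs in a cell of IgG1 replicate 1 and 1852 and 1808 UMIs in 2 cells of ipilimumab replicate 3, and 0 in the other 13 source cells. Bpifa1 had 265 and 2674 UMIs in the first 2 of these cells and 0 in the third, which was thus positive for Scgb3a1 alone, and a single UMI in a cell with 68162 Scgb1a1 UMIs. The barcode of ipilimumab replicate 2 removed for its mitochondrial share was also of this kind, with 189 Scgb3a1 and 419 Bpifa1 UMIs beside 3739 of Scgb1a1.

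**Figure D1:**
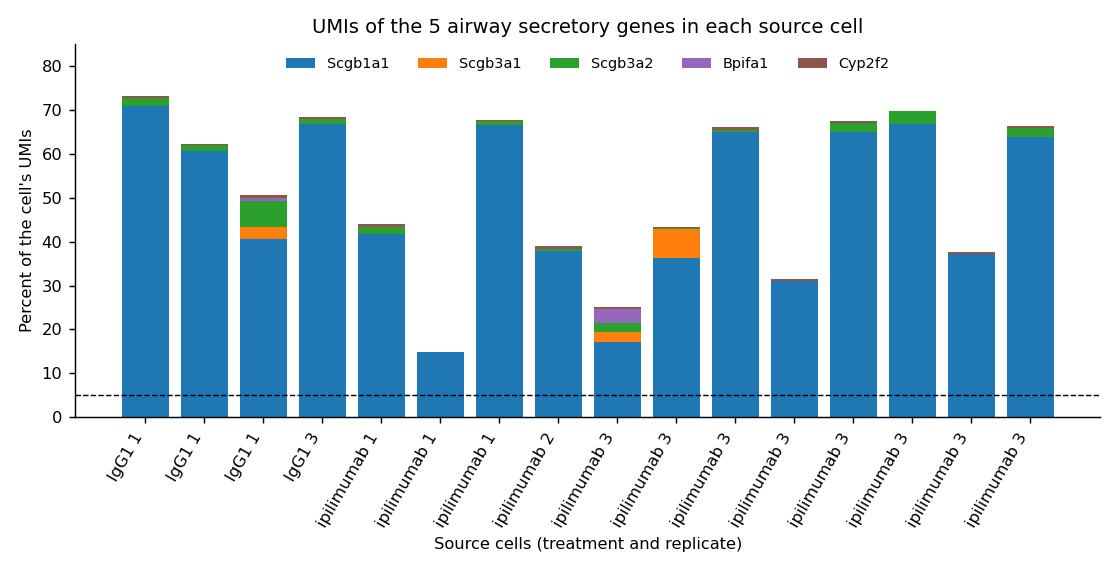
UMIs of each of the 5 airway secretory genes in each source cell (log axis), with the cells grouped by mouse. Scgb1a1 is present in 16 of 16 cells at 690 to 68162 UMIs and Scgb3a2 in 16, while Scgb3a1 and Bpifa1 each appear in only 3 cells.

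Between mice, source cells summed per mouse had 555008 and 668350 Scgb1a1 counts scaled to a total of 1000000 UMIs (CPM) in the 2 IgG1 mice that had any, and 374725, 378914 and 430582 CPM in the ipilimumab mice. Scgb3a2 was at 37434 and 9844 CPM in the IgG1 mice and at 12994, 5238 and 9547 CPM in the ipilimumab mice, and these ranges overlap. Cyp2f2 varied least, at 5177 and 5246 CPM against 4417, 6015 and 4596 CPM. No test of treatment was made within source cells, since only ipilimumab replicate 3 reached 5 cells, and the level of the 5 genes was itself the rule for choosing them.

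The source cells carried other genes of airway secretory cells, which the rule did not use, although a cell that is set apart from the rest in this way is described here and not tested. At least 3 airway secretory markers other than the 5 genes were found in 15 of 16 cells. Of 16 genes for secreted defence proteins, 7 were found in at least 8 source cells and 12 were higher than in other kept cells, led by the protease inhibitor gene Wfdc2 (4969 against 28.0 CPM) and the haptoglobin gene Hp (4429 against 42.4 CPM). These 12 leave out Muc5ac, which was at 34.0 CPM in source cells and 0 CPM in other kept cells. All 17 genes of foreign compound metabolism were higher, among them Cbr2 (3801 against 27.4 CPM), which encodes a carbonyl reductase, and Aldh1a1 (1601 against 18.1 CPM), which encodes a retinaldehyde dehydrogenase. The median ratios were 169 for the defence list, 46.3 for the metabolism list and 33.8 for 16 identity genes, against 0.627 over the 12883 genes found in both kinds of cell, of which 1247 were more than 10-fold higher.

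Genes of mucus were found in few source cells. The mucin genes Muc5b (285 UMIs) and Muc5ac (19 UMIs) and the trefoil gene Tff2 (254 UMIs) were each found in 3 source cells, as was Bpifb1 (266 UMIs), a relative of Bpifa1. The defence genes Slpi, Lyz2 and Chil4 were lower than in other cells, with Chil4 at 0 UMIs. Beyond the 5 genes and by the ratio to other cells, the leading genes found in at least 20% of source cells included Gabrp (ratio 2420), Pon1 (1735), Itprid1 (1646), Ces1f (1491), Acsm1 (1029), Aldh3a1 (842), Cyp4f15 (823) and Chad (776).

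Markers of other cells were also present in part of the source cells. The 8 general epithelial genes were each higher than in other kept cells and found in at least 8 source cells, with Epcam in 13 of 16. At least 3 of 8 AT2 markers were found in 13 source cells, at least 3 AT1 markers in 11 and at least 3 ciliated markers in 6, of which 2 held 8 of 8. The surfactant genes Sftpa1 (2133 against 96.8 CPM), Sftpb and Sftpd were higher in source cells, whereas Sftpc, the defining AT2 gene, was at 17.9 against 581 CPM. Ptprc, the pan-leukocyte gene, was found in 2 source cells of ipilimumab replicate 3 that also held 5 and 6 dendritic markers, and no fibroblast marker was found in any. The median doublet score was 0.646 in source cells and 0.333 in other kept cells, and their median depth was 26717.5 against 6626 UMIs. Whether doublets add to these counts was not tested.

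Over 90 sums of a cell class in a mouse, the genes fell into a pair and a trio by likeness of log2(CPM + 1). Scgb3a1 and Bpifa1 had a Pearson correlation of 0.971, and the genes most like either were Slco1a5, Muc5b and Ern2, at 0.915 to 0.961. Scgb1a1 and Scgb3a2 had a correlation of 0.908 and shared Pon1, Cckar and Gabrp as the genes most like them (0.821 to 0.919). Cyp2f2 had a correlation of 0.829 with Scgb1a1 and 0.846 with Scgb3a2, and was most like Mgat3 (0.911), Cckar (0.910) and Cnksr2 (0.880). The sums share libraries and depth, and most are at or near 0. Source cells were also chosen by the level of the airway secretory genes compared here. Gabrp, for example, had 100 UMIs in source cells and 17 in other kept cells. How far sums of source cells set these correlations was not tested. The values therefore describe the pattern of levels only, and the pair and the trio are not independent of that choice.

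The compartments that held the UMIs of the 5 genes differed between mice. Of all their UMIs in a library, source cells held 92.8%, 0% and 83.7% in the IgG1 mice and 34.9%, 16.2% and 92.7% in the ipilimumab mice. Barcodes with fewer than 100 UMIs held 5.40%, 83.3% and 9.18% in the IgG1 mice and 46.4%, 69.0% and 4.98% in the ipilimumab mice. Thus in 3 libraries most UMIs of these genes were in a few intact cells, and in IgG1 replicate 2 and ipilimumab replicates 1 and 2 barcodes under 100 UMIs held more of them than source cells did.

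Other kept cells held 1.52% to 8.64% of these UMIs. The whole libraries held 60919, 7573 and 12614 UMIs of the 5 genes in the IgG1 mice and 100359, 61980 and 168161 in the ipilimumab mice. In ipilimumab replicate 1, uncalled barcodes of at least 100 UMIs held a further 12.5%, against 0.144% to 1.98% in the others.

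**Figure D2:**
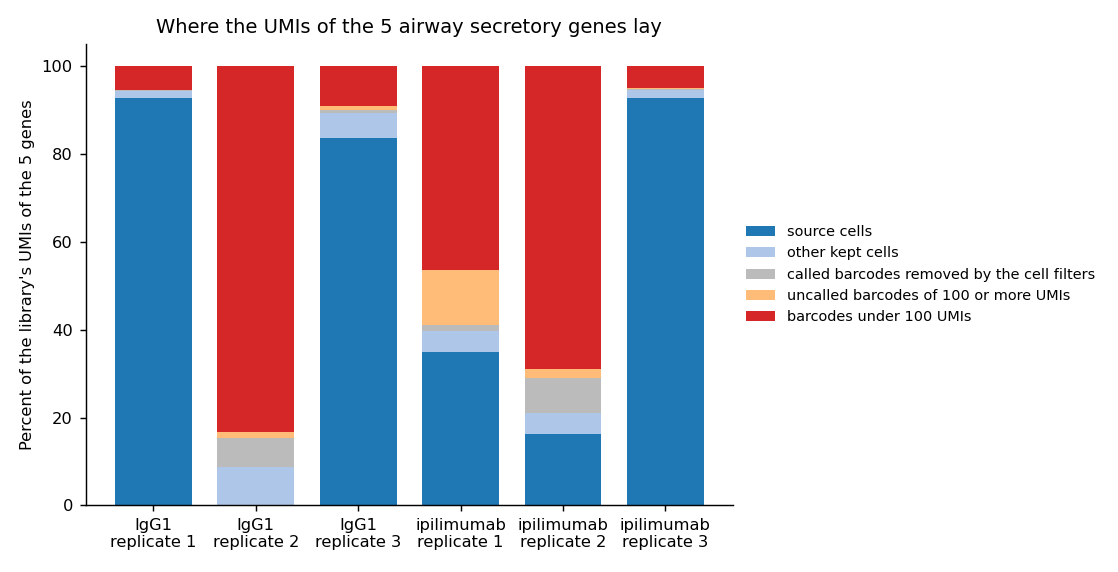
Share of each library's UMIs of the 5 airway secretory genes (percent, stacked bars from 0) in source cells, other kept cells, uncalled barcodes of at least 100 UMIs, barcodes under 100 UMIs and called barcodes that were removed, by mouse. Source cells hold 83.7% to 92.8% in 3 mice and 0% to 34.9% in the other 3.

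The ambient share of the 5 genes was higher in each ipilimumab mouse than in any IgG1 mouse. In barcodes with fewer than 100 UMIs the 5 genes made up 0.122%, 0.206% and 0.0477% of the UMIs in the IgG1 mice and 1.49%, 1.38% and 0.278% in the ipilimumab mice, with an exact 95% binomial interval of 0.0450% to 0.0505% for the lowest. The means were 0.125% ± 0.0794 (SD, n = 3) and 1.05% ± 0.670 (SD, n = 3), a ratio of 8.38. The exact two-sided permutation test gave p = 0.1, the smallest that this design allows. Ipilimumab replicate 3, with 8 source cells, was much closer to the IgG1 mice than to the other ipilimumab mice.

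Scgb1a1 carried this difference. Its ambient level was 1124, 1943 and 451 CPM in the IgG1 mice and 14557, 13580 and 2524 CPM in the ipilimumab mice, without overlap. In the fit over 12521 genes by edgeR's quasi-likelihood test, 0 genes (0%) were called and 505 had an unadjusted p under 0.05. A call needed an adjusted p below 0.05 in that test and a log2 fold change beyond 0.3 in size. DESeq2 called 6 genes (0.0479%), and the airway secretory genes followed here were not among them. The log2 fold change of Scgb1a1 was 3.13 (SE 0.69), with an unadjusted p of 0.0013 and an adjusted p of 0.995. Its adjusted p ranged from 1.84e-08 to 0.9999 over the alternative settings, and without the low-count filter it was called, together with Scgb3a2 and Bpifa1, among 58 of 23979 genes (0.242%).

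Scgb3a2 followed Scgb1a1, at 46.9, 47.7 and 6.59 CPM in the IgG1 mice and 243, 185 and 44.1 CPM in the ipilimumab mice. Its log2 fold change was 2.21 (SE 0.68, edgeR unadjusted p = 0.0095, adjusted p = 0.995), and here ipilimumab replicate 3 fell within the IgG1 range. Cyp2f2 was at 25.8, 70.6 and 18.1 CPM against 62.8, 52.4 and 86.6 CPM, and its log2 fold change of 0.80 (SE 0.44) was smaller than that of the other 4 genes. Its groups overlapped, since IgG1 replicate 2 lay above 2 of the ipilimumab mice.

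Scgb3a1 and Bpifa1 had another order of mice. Scgb3a1 had 38, 3 and 3 UMIs in barcodes under 100 UMIs of the IgG1 mice and 2, 16 and 269 in the ipilimumab mice, or 14.03, 0.980 and 1.24 CPM and 0.638, 5.17 and 89.3 CPM. Bpifa1 had 11, 2 and 0 UMIs and 0, 36 and 112 UMIs. The 3 mice with over 10 UMIs of either gene, IgG1 replicate 1 and ipilimumab replicates 2 and 3, were the 3 in which a source cell or the barcode removed for its mitochondrial share held both. In ipilimumab replicate 1, with the highest ambient Scgb1a1, both genes were at or under 2 UMIs. Their fitted log2 fold changes were 2.59 (SE 1.37) and 3.36 (SE 1.31) with adjusted p of 0.995 by edgeR, and that of Scgb3a1 was -0.84 without ipilimumab replicate 3. For Bpifa1, leaving out each mouse in turn gave 1.90 to 5.34.

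By unadjusted p in the edgeR fit, Bpifa1 ranked 292, Scgb1a1 10, Scgb3a1 992, Scgb3a2 76 and Cyp2f2 1127. By fitted log2 fold change they ranked 3, 5, 9, 16 and 305 of the 12521 genes. Among these genes, 3.93% had each ipilimumab mouse above each IgG1 mouse in CPM, and 1 of the 5 airway secretory genes, Scgb1a1, was among them. The median log2 fold change of the 5 genes was 2.59, against 0.01 over all genes tested. That median is the value of Scgb3a1, which was -0.84 without ipilimumab replicate 3.

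**Figure D3:**
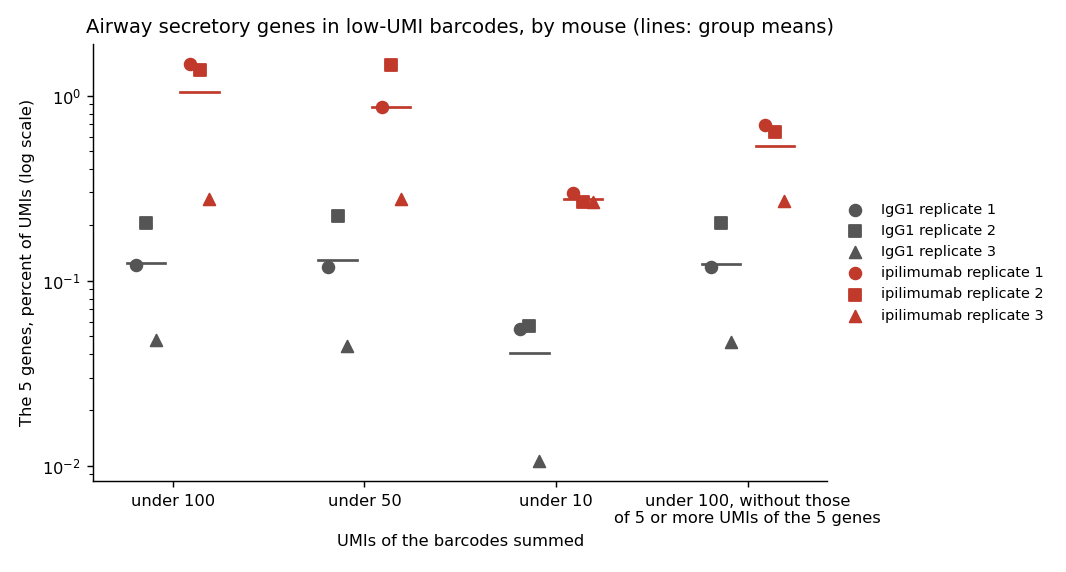
Percent of the UMIs in barcodes with fewer than 100 UMIs that come from the 5 airway secretory genes, by mouse, with group means and SD. The IgG1 mice sit between 0.0477% and 0.206% and the ipilimumab mice at 1.49%, 1.38% and 0.278%.

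Most other genes of airway secretory cells had smaller ambient differences. Over all 12521 genes, for reference, 6456 had a positive log2 fold change and 505 an unadjusted p under 0.05. Of 7 defence genes tested, 5 had a positive log2 fold change, 1 had an unadjusted p under 0.05 and 0 were called, with a median of 0.25, and of 12 metabolism genes 9 were positive, 4 had an unadjusted p under 0.05 and 0 were called, with a median of 0.23. Wfdc2 was at 40.6, 45.8 and 26.4 CPM in the IgG1 mice and at 123, 103 and 161 CPM in the ipilimumab mice, a log2 fold change of 1.79 (SE 0.24) with an adjusted p of 0.404 by edgeR. Hp, as high as Wfdc2 in source cells, was at 51.7, 101 and 34.6 CPM against 108, 129 and 48.1 CPM, with overlap. Of 8 general epithelial genes 7 were positive and 3 had an unadjusted p under 0.05, and of 6 identity genes tested 4 were positive and 2 had one.

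Surfactant transcripts, which AT2 cells make, were also higher in the ambient RNA of the ipilimumab mice. Sftpc was at 158, 224 and 19.4 CPM in the IgG1 mice and at 1700, 806 and 417 CPM in the ipilimumab mice, and the 4 surfactant genes had log2 fold changes of 2.17 to 3.44 (median 2.85), each with an unadjusted p under 0.05 and none called by edgeR's quasi-likelihood test. The AT2 gate held 4, 6 and 0 cells in the IgG1 mice and 151, 7 and 6 in the ipilimumab mice. The part of AT2 cell numbers in these values was not tested. In summed barcodes, more source cells and more RNA from each cannot be told apart.

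The ambient share did not follow the number of source cells kept. IgG1 replicate 2 had 0 source cells and an ambient share of 0.206%, the highest of the IgG1 mice, and ipilimumab replicate 2 had 1 source cell and 1.38%. Over the 6 mice, the UMIs of the 5 genes in source cells, as a percent of kept-cell UMIs, had a Pearson correlation with the ambient share of the 5 genes of -0.21 (exact permutation p = 0.75) and a Spearman correlation of 0.0286 (exact permutation p = 1). Without the 2 mice farthest from the median, ipilimumab replicate 3 and IgG1 replicate 1, r was 0.63. This was the 1 relation computed across mice. Within the IgG1 and ipilimumab groups there were 3 mice each, too few for a value.

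UMIs of the 5 genes were not spread evenly over the small barcodes. Among barcodes of 20 to 99 UMIs, those with at least 5 UMIs of the 5 genes numbered 3, 3 and 2 in the IgG1 mice and 1492, 2912 and 13 in the ipilimumab mice. In ipilimumab replicates 1 and 2 these were 2.56% and 5.08% of the barcodes of that size, with exact 95% binomial intervals of 2.44% to 2.69% and 4.90% to 5.27%, and they held 58.5% and 63.1% of the UMIs of the 5 genes in it. In the other 4 mice they held 0.321% to 3.64%. Without these barcodes the ambient share was 0.694%, 0.634% and 0.271% in the ipilimumab mice and 0.119%, 0.206% and 0.0467% in the IgG1 mice. The groups still did not overlap, and the ratio of the means fell from 8.38 to 4.30. The barcodes were chosen by the same UMIs that the share counts, and most were in ipilimumab replicates 1 and 2. A lower ratio therefore follows from the choice.

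In these 2 libraries Scgb1a1 was the most unevenly spread gene by the ratio of variance to mean. The ratio of its variance to its mean over these barcodes was 13.3 and 6.18 in ipilimumab replicates 1 and 2, the highest of 576 and 532 genes compared, and 1.23 to 2.17 in the other 4 mice, where it ranked 8 to 13. The median gene had a ratio of 1.01 to 1.02, the value of even spread. Sftpc, whose ambient level was also highest in these libraries, had ratios of 1.59 and 1.40. At equal clumping this ratio grows with the mean, and Scgb1a1 was more abundant here than in the other mice and than Sftpc. The ratios were not corrected for level.

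In barcodes with fewer than 10 UMIs the 5 genes made up 0.0546%, 0.0568% and 0.0106% of UMIs in the IgG1 mice and 0.297%, 0.267% and 0.266% in the ipilimumab mice. Here ipilimumab replicate 3 stood beside the other ipilimumab mice, and the groups did not overlap. The fit on these barcodes called 1 of 7434 genes (0.0135%), and it was Scgb1a1 (log2 fold change 2.81, SE 0.39, adjusted p = 0.022 by edgeR's quasi-likelihood test). In barcodes of 10 to 19 UMIs the groups overlapped, with 0.143%, 0.365% and 0.0541% in the IgG1 mice and 0.844%, 1.06% and 0.269% in the ipilimumab mice. In barcodes of 20 to 49 UMIs the shares were 0.139%, 0.263% and 0.0582% against 1.12%, 2.13% and 0.281%. In barcodes of 50 to 99 UMIs they were 0.137%, 0.113% and 0.0660% against 2.996%, 1.01% and 0.301%, without overlap in either of these bands.

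**Figure D4:**
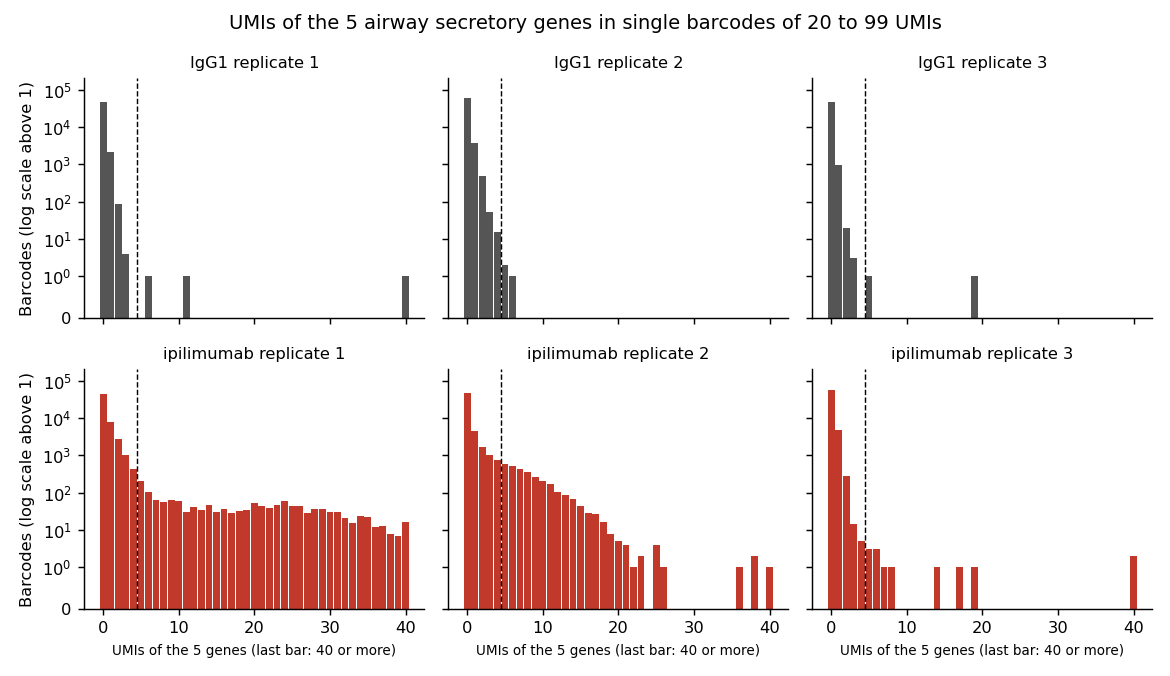
Number of barcodes of 20 to 99 UMIs (log axis) by how many UMIs of the 5 airway secretory genes each holds, by mouse. The libraries of ipilimumab replicates 1 and 2 have 1492 and 2912 barcodes with at least 5 such UMIs, and the other 4 have 2 to 13.

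With the UMIs of the 5 genes left out, these barcodes were compared with the other barcodes of 20 to 99 UMIs of the same library. Some other airway secretory transcripts were higher in them, with Hp 21.8 and 19.2 times, Wfdc2 6.90 and 21.4 times, Gsta3 9.49 and 20.4 times and Cbr2 6.25 and 10.5 times the level of the other barcodes in ipilimumab replicates 1 and 2. Sftpa1, found in source cells, was at 2.15 and 12.9 times. Sftpc, which source cells hold at low level, was at 0.525 and 0.891 times, and the macrophage gene Lyz2 at 0.983 and 0.886 times. Other genes of the same lists were near 1 or below it, such as Slpi at 1.03 and 0.940 times, Gstm1 at 1.48 and 1.09 times and Xbp1 at 0.7998 and 1.05 times. These genes were picked as examples after their values were seen, so they do not speak for the lists as a whole.

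The same libraries had kept cells of other types with several UMIs of the 5 genes. At least 5 such UMIs were held by 11, 8 and 9 kept cells outside the source cells in the IgG1 mice (0.253%, 0.189% and 0.275%) and by 170, 144 and 17 in the ipilimumab mice (3.92%, 3.60% and 0.419%). Ciliated cells were 8, 3 and 8 of these in the IgG1 mice, of 11, 8 and 9 in all. In ipilimumab replicates 1 and 2 they included 51 and 42 B cells, 32 and 37 T cells, 10 and 28 alveolar macrophages and 6 and 10 NK cells. In the IgG1 mice 0 B cells, 0 T cells and 0 NK cells held 5. In the libraries of other mice, barcodes equal to those of a source cell held 0 to 5 UMIs of these genes, and barcodes at 1 mismatch from a source cell of the same library held 0 to 34.

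Outside source and ciliated cells, Scgb1a1 was present at low level in most cell types. In T cells it was at 10.1, 6.88 and 2.30 CPM in the IgG1 mice and at 84.8, 58.2 and 22.3 CPM in the ipilimumab mice. In B cells it was at 8.95, 12.6 and 3.67 CPM against 159, 84.4 and 26.7 CPM. In alveolar macrophages it was at 12.9, 7.91 and 6.92 CPM against 40.6, 27.1 and 30.8 CPM. In these 3 types the groups did not overlap. The order of the ipilimumab mice in T and B cells, and of the IgG1 mice in B cells, was that of ambient Scgb1a1. The order of the IgG1 mice in T cells, and of both groups in alveolar macrophages, differed from it.

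Over the 11 cell types other than ciliated cells with values in 6 mice, the groups did not overlap for Scgb1a1 in 9 types, and they overlapped in dendritic cells and fibroblasts. In these types 3.77% to 9.05% of all genes tested had each ipilimumab mouse above each IgG1 mouse , namely 6.52% in T, 6.37% in B and 5.08% in NK cells, 5.52% and 3.77% in alveolar and interstitial macrophages, 3.94% and 6.11% in classical and nonclassical monocytes, 9.05% in neutrophils, 6.59% in dendritic, 6.81% in endothelial cells and 6.47% in fibroblasts. In the 12 types that could be fitted, 12 tests of the 5 genes passed the low-count filter, 11 of Scgb1a1 and 1 of Cyp2f2, so that Scgb3a1, Scgb3a2 and Bpifa1 were tested in none. Of these 12 tests 0 were called by edgeR's quasi-likelihood test, with 10 at an unadjusted p under 0.05 and adjusted p from 0.205 to 0.984, whereas DESeq2 called 3, in a fit over these types that called 0.114% of all genes. Without the low-count filter 11 of 48 tests were called (0.602% of all genes), and without ipilimumab replicate 3, 2 of 13 (0.00902%). The share of all genes called was 0% in 10 types, 0.00816% in T cells and 0.028% in fibroblasts.

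The log2 fold change of Scgb1a1 was 3.44 (SE 0.58) in B cells, 3.13 (SE 0.54) in T cells, 2.94 in classical monocytes, 2.91 in neutrophils, 2.78 in NK cells, 2.72 in endothelial cells, 1.80 (SE 0.23) in alveolar macrophages and 1.65 (SE 0.72) in fibroblasts. That of the ambient RNA was 3.13. As a percent of the ambient level of the same mouse, Scgb1a1 in these 11 cell types was between 0% and 2.05%, with medians per type from 0.286% in dendritic cells to 1.47% in endothelial cells. Without the cells that held at least 5 UMIs of the 5 genes, the log2 fold changes were lower, from 1.51 to 2.33. Of 9 tests 0 were called. These cells were chosen by the same UMIs that the fit counts, and most were in ipilimumab mice. A lower value therefore follows from the choice.

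At equal depth, the share of B and T cells with Scgb1a1 had the order of ambient Scgb1a1 among the mice of each group. After each cell was thinned to 1000 UMIs, 0.973%, 1.83% and 0.392% of B cells held a Scgb1a1 UMI in the IgG1 mice and 7.62%, 6.79% and 2.53% in the ipilimumab mice, with 0 to 39 shallower B cells left out per mouse. Unthinned, at median depths of 5210 to 6626 UMIs, the shares were 5.10%, 6.96% and 2.57% against 26.9%, 18.7% and 14.6%. For T cells, thinned, they were 0.827%, 0.952% and 0.350% against 5.71%, 5.05% and 2.57%, at median depths of 7930 to 10099 UMIs before thinning. T and B cells are not known to express Scgb1a1, and where these UMIs came from was not tested.

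**Figure D5:**
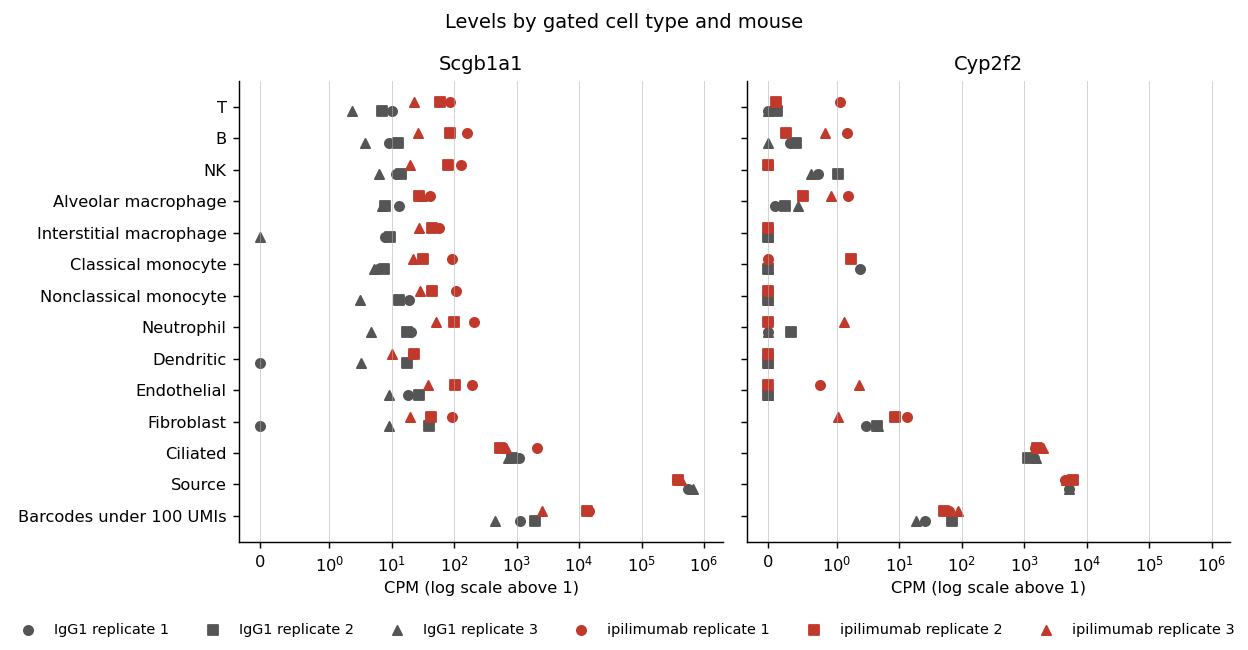
Level of Scgb1a1 and Cyp2f2 (CPM, log axis) by cell type, with a point for each mouse. Ciliated cells hold Cyp2f2 at 1150 to 1978 CPM in 6 of 6 mice, while Scgb1a1 has each ipilimumab mouse above each IgG1 mouse in 9 of 11 other cell types, where 3.77% to 9.05% of all genes do.

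Cyp2f2 differed from the other 4 genes in ciliated cells, the airway cells that move mucus. It was at 1427, 1150 and 1548 CPM in the ciliated cells of the IgG1 mice and at 1500, 1590 and 1978 CPM in those of the ipilimumab mice, compared with 4417 to 6015 CPM in source cells. It was found in 63 of 76 ciliated cells. Ciliated cells held 2087 of the 2547 Cyp2f2 UMIs outside the source cells (81.9%, and 71.8% to 97.9% per mouse), whereas they held 12.8% of such Scgb1a1 UMIs. Per mouse, that share of Scgb1a1 was 32.8%, 13.6% and 54.1% in the IgG1 mice and 12.7%, 6.40% and 8.13% in the ipilimumab mice, below that of Cyp2f2 in each mouse.

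Between treatments, Cyp2f2 in ciliated cells had a log2 fold change of 0.20 (SE 0.22, adjusted p = 0.984 by edgeR's quasi-likelihood test), in a fit without IgG1 replicate 2, which had only 3 ciliated cells. Scgb1a1 in ciliated cells was at 1071, 850 and 716 CPM against 2123, 544 and 679 CPM, with overlap and a log2 fold change of 0.32 (SE 0.48), which was -0.54 without ipilimumab replicate 1, the library with ciliated cells of few UMIs. These Scgb1a1 levels in ciliated cells lay above those of the 11 other cell types compared above, which were 0 to 207 CPM. Scgb3a2 was at 8.32 to 24.0 CPM in the IgG1 mice and 26.1 to 78.8 CPM in the ipilimumab mice. It had 2 to 20 UMIs per mouse.

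The mix of the 5 genes in ciliated cells was unlike that of the ambient RNA. Of the UMIs of the 5 genes, Cyp2f2 made up 56.8%, 56.8% and 68.1% in ciliated cells of the IgG1 mice and 40.5%, 73.1% and 73.6% in those of the ipilimumab mice. In the ambient RNA of the same mice it made up 2.13%, 3.42% and 3.80% and 0.423%, 0.379% and 3.11%. The log2 odds ratio of Cyp2f2 between ciliated cells and ambient RNA averaged 6.68 ± 1.55 (SD, n = 6), higher in 6 of 6 mice. The exact two-sided sign-flip permutation test gave p = 0.031, the smallest that 6 mice allow, with an adjusted p of 0.1875 over 12 tests.

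In T cells, B cells and alveolar macrophages the corresponding values for Cyp2f2 were -0.69 ± 1.40, 0.07 ± 0.91 and 0.85 ± 1.58 (SD, n = 6), higher in 1, 4 and 3 of 6 mice, with adjusted p of 0.375, 0.844 and 0.450 by the same exact permutation test. For Scgb1a1 they were -0.32, -0.09 and -0.69. For Scgb3a2 they were 0.62, 0.51 and 0.65, higher than in ambient RNA in 5 of 6 mice in each type. The adjusted p of Scgb3a2 were 0.3125, 0.1875 and 0.1875 by the same exact permutation test. In ciliated cells Scgb1a1 and Scgb3a2 averaged -5.18 and -0.89, where a high Cyp2f2 share of the 5-gene UMIs lowers the other shares. Thus the mix in these cells lay nearer to that of the ambient RNA than the mix in ciliated cells did, and 0 of the 12 tests passed an adjusted p of 0.05, which this design can reach only if at least 8 of the 12 tests gave the smallest p. A Cyp2f2 share above the ambient one was not confined to ciliated cells. In gates with fewer mice, outside these tests, its value averaged 3.50 in fibroblasts (higher in 4 of 4 mice) and 4.33 in ungated cells (4 of 4). It was 4.18 in AT2 cells (2 of 2) and 0.70 in endothelial cells (3 of 3). In NK cells it was -0.25 (1 of 4) and in neutrophils -0.18 (2 of 5).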

How the data were processed

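Single-cell 3' RNA libraries of 6 mice were analysed, 3 given IgG1 and 3 given ipilimumab, as grouped by the labels. The deposited values are raw UMI counts per gene and barcode, for filled and empty barcodes, which the authors made by aligning reads to mm10. The submitters' processing notes name Cell Ranger 7.0.0, the file header and the methods name other versions, and the ambient correction and normalization the methods describe come after these counts. All values here were computed from the counts, with no ambient correction. The 5 genes and all gene and marker lists were chosen with earlier results of these data known.

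Barcodes were called as cells from 1 in 10 of the 99th percentile of the top 5000 UMI totals, or from 500 UMIs by a profile unlike the barcodes of ranks 45000 to 90000 (10000 simulations, false discovery rate 0.01). Cells with under 200 genes or over 10% mitochondrial UMIs were removed, and so were the highest doublet scores (2 simulated doublets per cell, 30 components, 0.8% per 1000 cells). A cell outside the source cells was gated to the marker list of which it held at least 3 of 8 markers and more than of any other list. UMIs were summed per mouse and tested with edgeR 4.0.16 (filterByExpr, TMM, quasi-likelihood, Benjamini-Hochberg over all genes tested), with mice of fewer than 5 cells of a type left out; a call needed an adjusted p below 0.05 and a log2 fold change beyond 0.3 in size. CPM are per total UMIs of the sum. Single values were tested by exact permutation over mice. Mixes were compared for gates with at least 20 UMIs of the 5 genes per mouse, with 0.5 UMIs added. Alternatives changed 1 choice at a time (DESeq2 1.42.0, no filter, RLE factors, thresholds, calling, doublets, a replicate block, each mouse left out). Genes named are the 5 genes, genes of the fixed lists, the 10 highest by ratio in source cells and the 3 most alike each gene. Some of these are not reported here. Scripts were tested on simulated data. The p-values set a difference or relation against the variation between mice. The counting error depends on the cells or UMIs behind each value, in libraries of 37666042 to 48612412 UMIs.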

Additional observations from a re-analysis of the deposited data

Results flagged for a closer look

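Uncalled barcodes of at least 100 UMIs, which enter no test above, held the 5 airway secretory genes at 5% or more of their UMIs far more often in 2 ipilimumab libraries than in the control libraries. There were 332 such barcodes in ipilimumab replicate 1 (1.92% of 17333) and 25 in ipilimumab replicate 2 (1.25% of 2000), against 0, 0 and 1 in the IgG1 mice and 1 in ipilimumab replicate 3. Those of ipilimumab replicate 1 had a median of 114 UMIs and of 23.9% in the 5 genes, and those of ipilimumab replicate 2 a median of 152 UMIs and of 7.84%. In sum they held 9777 and 593 UMIs of the 5 genes.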

How the results depend on the processing

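Of 52 alternative values of the 6 main results, 43 were the same as the main value, and of 214 alternatives of 20 values for single genes 185 were. For fold changes, shares and correlations, the same meant an equal direction and side of the threshold. For a count of calls it meant an equal count or one within 1.5-fold. The 9 alternatives of the ambient share could not change side, since the smallest p of their exact permutation test was 0.1. The count of genes called in the ambient RNA, 0 in the report, was 58 with no low-count filter, 6 with DESeq2, 5 with the replicate block and 1 with barcodes under 10 UMIs, and 0 without each mouse in turn. The count of tests of the 5 genes called in gated cells, 0 in the report, was 11 with no filter, 3 with DESeq2 and 4 with the replicate block, and it ranged from 0 to 2 without each mouse in turn, with 2 without ipilimumab replicate 3 (Scgb1a1 in B and NK cells). The correlation of source cells with ambient share was 0.39 with barcodes under 10 UMIs. The log2 fold change of ambient Scgb3a1 ranged from -0.84 (without ipilimumab replicate 3) to 4.81 (without IgG1 replicate 1) over the mice left out in turn, and that of Scgb1a1 in ciliated cells from -0.54 (without ipilimumab replicate 1) to 0.65, and it was -0.19 with no cells called by profile. The cause of these changes was not tested. The ratio of ambient shares ranged from 4.30 to 12.4, with 12.4 without IgG1 replicate 2, and the log2 fold change of the source cell share from 0.47 to 2.56.

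The replicate numbers are shared by both groups. Same-numbered mice had correlations of deviations of 0.13, 0.28 and -0.08 over 12521 genes, so the numbers were not taken as pairs, and not each mouse was most like its own number. With the replicate block, the log2 fold change of the source cell share was 1.36 (adjusted p = 0.562, edgeR), Scgb1a1 and Scgb3a2 were among the 5 of 13059 genes called in ambient RNA (0.0383%), and the 4 of 16 tests called in gated cells (0.0182% of all genes there) were of Scgb1a1 in T, B and NK cells and neutrophils. Removing barcodes or cells with at least 5 UMIs of the 5 genes was added after the data were seen. It takes out the UMIs that are then measured, so its lower values follow from the choice. Treatment tests within source cells and of source cells against ambient RNA, with their alternatives, were not run, because only 1 mouse reached 5 source cells. The 16 source cells limit the precision of their share. Beyond the upper limit given for a count of 0 cells, no detection limit was computed.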
